A study of Mus musculus with 10 samples.

Results

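The genes examined here were 10 of the MHC class II antigen presentation pathway, called the members, each listed by name in the gene expression matrices. H2-Aa, H2-Ab1 and H2-Eb1 encode chains of the presenting molecules. H2-DMa, H2-DMb1, H2-DMb2, H2-Oa and H2-Ob encode the peptide editors, Cd74 is the invariant chain and Ciita the transactivator. The members were chosen by symbol, as 10 of the 32285 genes of each matrix. Other genes of the pathway, such as H2-Eb2, are listed there too. Female C3H/HeJ mice aged 4 to 6 weeks carried subcutaneous SW1 melanoma for 10 days and then drank control water or water with L-fucose (L-fuc, a dietary sugar), and CD45+ cells were sorted from the tumors. Control mice were sampled at day 0, before L-fuc was given, and both waters were sampled at day 7 and at day 21. The labels give the L-fuc water as 100 mM in one protocol and 100 nM in the other, and 5 or 6 mice per water, with 3 mice at day 0. Each condition was 1 gene expression library with 1 T cell receptor library beside it, and SW1 is 1 transplanted cell line. No difference between libraries therefore has a replicate check, no test was made, and every interval below is a 95% interval of counting error only.

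MHC class II molecules are pairs of an alpha and a beta chain that carry peptides from the endosome to the cell surface, where CD4+ T cells read them. The invariant chain Cd74 fills the peptide groove until cathepsins trim it, H2-DM then exchanges the remaining fragment for other peptides, and H2-O restrains H2-DM, mainly in B cells. Ciita does not bind DNA itself but is held at class II promoters by a complex of RFX, CREB and NF-Y proteins. Dendritic cells, macrophages and B cells carry class II constitutively or after activation, and many other cells, melanoma cells among them, can make it after interferon gamma.

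Of the members, 8 lie within 224 kb of chromosome 17 (GRCm38, chr17:34092340-34316674 in the GENCODE vM21 annotation), Ciita lies on chromosome 16, and all are annotated as protein coding. H2-Aa spans chr17:34282744-34287823 on the minus strand, H2-Ab1 chr17:34257689-34269419 and H2-Eb1 chr17:34305867-34316674, both on the plus strand. RefSeq start windows (GRCm38.p6, from 250 bases before to 50 bases after a start) matched 7 of the 10 members, and no window was matched for H2-Ab1, Cd74 and Ciita. GATTGG is the reverse complement of the CCAAT box that NF-Y binds. The 66 bases around it are shown for the 6 members in which it lies close before the start. These members share GATTGG, 44 to 91 bases before the start, and 4 of them also hold ATGATGC. Their levels across the cells are very different. Capitals mark GATTGG, and also ATGATGC, or TGACGTC in H2-Aa, in the stretch where class II promoters are known to hold the sites of RFX and CREB.

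H2-Aa: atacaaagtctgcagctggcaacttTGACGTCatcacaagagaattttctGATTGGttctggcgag
H2-Eb1: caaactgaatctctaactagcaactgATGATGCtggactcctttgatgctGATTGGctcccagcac
H2-DMb1: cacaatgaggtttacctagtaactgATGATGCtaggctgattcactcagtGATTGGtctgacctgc
H2-DMb2: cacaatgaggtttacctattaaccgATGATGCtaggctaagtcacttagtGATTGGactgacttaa
H2-Oa: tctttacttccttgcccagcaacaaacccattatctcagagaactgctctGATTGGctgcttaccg
H2-Ob: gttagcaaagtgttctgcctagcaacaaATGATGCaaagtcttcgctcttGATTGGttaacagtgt

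In order, these stretches are chr17:34287857-34287922 on the minus strand and, on the plus strand, chr17:34305757-34305822, chr17:34153079-34153144, chr17:34145108-34145173, chr17:34092285-34092350 and chr17:34238797-34238862. GATTGG began 49 bases before the RefSeq start of H2-Aa, 60 before H2-Eb1, 62 before H2-DMb1, 91 before H2-DMb2, 44 before H2-Oa and 58 before H2-Ob. Between ATGATGC and GATTGG lay 17 bases in H2-Eb1, 18 in H2-DMb1 and in H2-DMb2, and 15 in H2-Ob. On either strand GATTGG was present in 16.1% of all 32851 start windows, ATGATGC in 2.46% and TGACGTC in 3.21%. ATGATGC followed by GATTGG on the same strand after 10 to 30 bases was found in 12 of the 32851 windows, 4 of them those of H2-Eb1, H2-DMb1, H2-DMb2 and H2-Ob. The letters were chosen after the members' windows had been read, so these counts describe the windows and test nothing. The mice are of another strain than the reference genome, and the sequences shown are the reference's.

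Barcodes with at least 500 genes and at most 10% mitochondrial UMIs (unique molecular identifiers, the molecules counted) were kept, 31156 in all and between 1182 and 17897 per library, with a median depth between 2890.5 and 8201 UMIs. They were put into macrophages (at least 10 UMIs of C1qa, C1qb and C1qc together), T cells (at least 2 of the Cd3 genes), B cells (at least 2 of Cd79a and Cd79b) and tumor (at least 1 of Sox10 and none of Ptprc), with barcodes that met more than 1 rule set apart and the rest called other. Although the labels give the cells as CD45+, the tumor class held from 17.7% of the kept barcodes at day 0 to 48.3% in the day 7 control. Its summed level of Mitf, S100b, Sparc and Erbb3 was 3215 to 4067 CPM (UMIs per 1000000 of the class) in the 5 libraries. The same list, which includes Mitf at about equal levels in both classes, summed in macrophages to 76.1 at day 0, 989.6 in the day 7 control, 399.2 in day 7 L-fuc, 121.5 in the day 21 control and 237.5 in day 21 L-fuc, so macrophage barcodes of day 7, and of its control most of all, carried tumor markers. The macrophage markers Adgre1, Csf1r, Cd68 and Apoe were present in macrophages of every library. Kept barcodes shared between libraries numbered at most 222, between the 2 libraries of day 7.

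Of the 4 classes with a rule, macrophages held the highest levels of the presenting chains in all 5 libraries. H2-Aa, the alpha chain of I-A, stood at 7696 CPM at day 0, 4262 in the day 7 control, 7119 in day 7 L-fuc, 6501 in the day 21 control and 6456 in day 21 L-fuc. H2-Ab1, its beta chain, stood at 3960.4, 2713, 4854, 4152 and 4439 in the same order, and H2-Eb1, the beta chain of I-E, at 7633, 4298, 7458, 6523 and 6592. The day 7 control was the lowest library for each of the 3 chains, and the other 4 lay close together. Summed over the 3 chains (the chain sum, used below as one level), macrophages had 19289.5 CPM at day 0 (19147 to 19433), 11273 in the day 7 control, 19432 in day 7 L-fuc, 17177 in the day 21 control and 17487 in day 21 L-fuc. H2-Ea, the alpha chain of I-E, is not listed in the matrices under that name or as H2-Ea-ps, so its level could not be given.

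**Figure D1:**
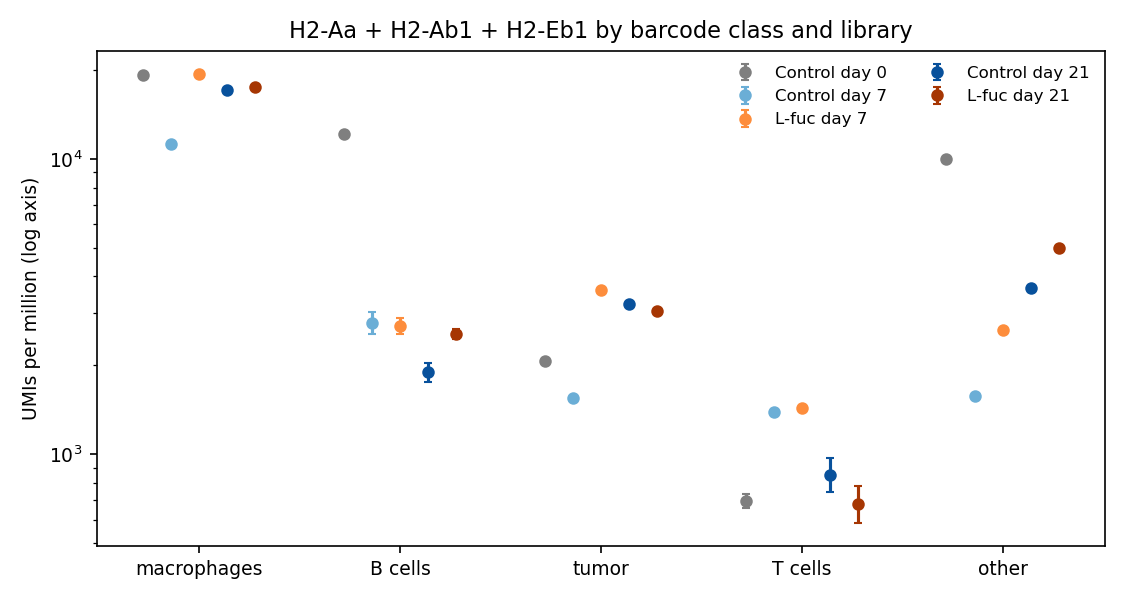
Summed level of H2-Aa, H2-Ab1 and H2-Eb1 in CPM (vertical, log axis) in 5 classes of barcodes (horizontal), 1 point per library with its 95% counting interval. Macrophages lie between 11273 and 19432 in all libraries, tumor between 1545 and 3592 and T cells between 677.3 and 1438.

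Cd74, the chaperone of the chains, was the most abundant member in macrophages, at 29184 CPM at day 0, 14932.5 in the day 7 control, 23604 in day 7 L-fuc, 22510.0 in the day 21 control and 22250.3 in day 21 L-fuc. Among the editors, H2-DMa was at 318.5 to 447.9, H2-DMb1 at 67.6 to 150.3 and H2-DMb2 at 129.6 to 364.4 CPM, with the lowest value of each in the day 7 control. Levels of H2-DMb1 and H2-DMb2 are uncertain against each other, because 37.6% of the 31-base stretches of the longest H2-DMb1 transcript also occur in H2-DMb2. Of its 90-base stretches, 15.9% do. H2-Oa (4.20 to 14.3) and H2-Ob (13.3 to 20.7) were low. Ciita was at 29.8 at day 0, 37.6 in the day 7 control, 52.8 in day 7 L-fuc, 50.8 in the day 21 control and 45.3 in day 21 L-fuc, so here the lowest level was that of day 0, the library where Cd74 was highest.

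The tumor class also held class II RNA. Its chain sum was 2068 CPM at day 0 (2026 to 2110.4), 1545 in the day 7 control, 3592 in day 7 L-fuc, 3232 in the day 21 control and 3064 in day 21 L-fuc, which was 0.107 to 0.188 of the macrophage level of the same library. The members were not lower by one common factor. Ciita in the tumor class was 0.661 of the macrophage level at day 0, 0.627 in the day 7 control, 0.941 in day 7 L-fuc, 0.589 in the day 21 control and 0.988 in day 21 L-fuc. H2-DMb2 was at 0.741, 0.690, 1.06, 1.12 and 1.13 of it, in the same order, and in 3 of 5 libraries was thus the one member with a higher level in the tumor class than in macrophages. The macrophage markers Adgre1, Csf1r and Cd68 were at 0.0172 of the macrophage level or less in the tumor class of every library, and at 0.00188 or less at day 0, where Adgre1 had no UMI. Apoe, which tumor cells can also make, was at 0.0225 to 0.0608. The rule of the class, which allows no Ptprc and sets apart barcodes with at least 10 C1q UMIs, held these markers low in part in advance.

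Counted per 1000 UMIs of the chains, which cancels the overall level, Ciita gave 9.52 UMIs in the tumor class at day 0 against 1.54 in macrophages, 15.3 against 3.34 in the day 7 control, 13.8 against 2.71 in day 7 L-fuc, 9.26 against 2.96 in the day 21 control and 14.6 against 2.59 in day 21 L-fuc. The intervals of both classes were apart in all 5 libraries. H2-DMb2 gave 57.8 to 130.7 in the tumor class and 11.5 to 20.3 in macrophages, and H2-DMa 61.6 to 75.2 against 21.6 to 28.3. Cd74 was the reverse, at 902.8 to 1098 in the tumor class, 1215 to 1513 in macrophages and 2223 to 2726 in B cells. H2-Eb1 gave 331.0 to 343.1 in the tumor class and 377.0 to 395.7 in macrophages. The tumor class thus differed from macrophages by relatively more Ciita and H2-DM and relatively less Cd74, in every library, with intervals apart for each of these members. The higher Ciita and H2-DM were not particular to the tumor class. In T cells Ciita gave 8.73, 12.7, 10.2, 12.9 and 0 from day 0 to day 21 L-fuc, from 11, 77, 119, 3 and 0 UMIs. T cells should not make class II, and the part of RNA from other cells in their values was not tested. In T cells H2-DMa gave 61.2 to 97.3, H2-DMb2 32.5 to 77.3 and Cd74 1170 to 1741. B cells of day 0 gave 9.63 of Ciita and 68.7 of H2-DMb2.

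**Figure D2:**
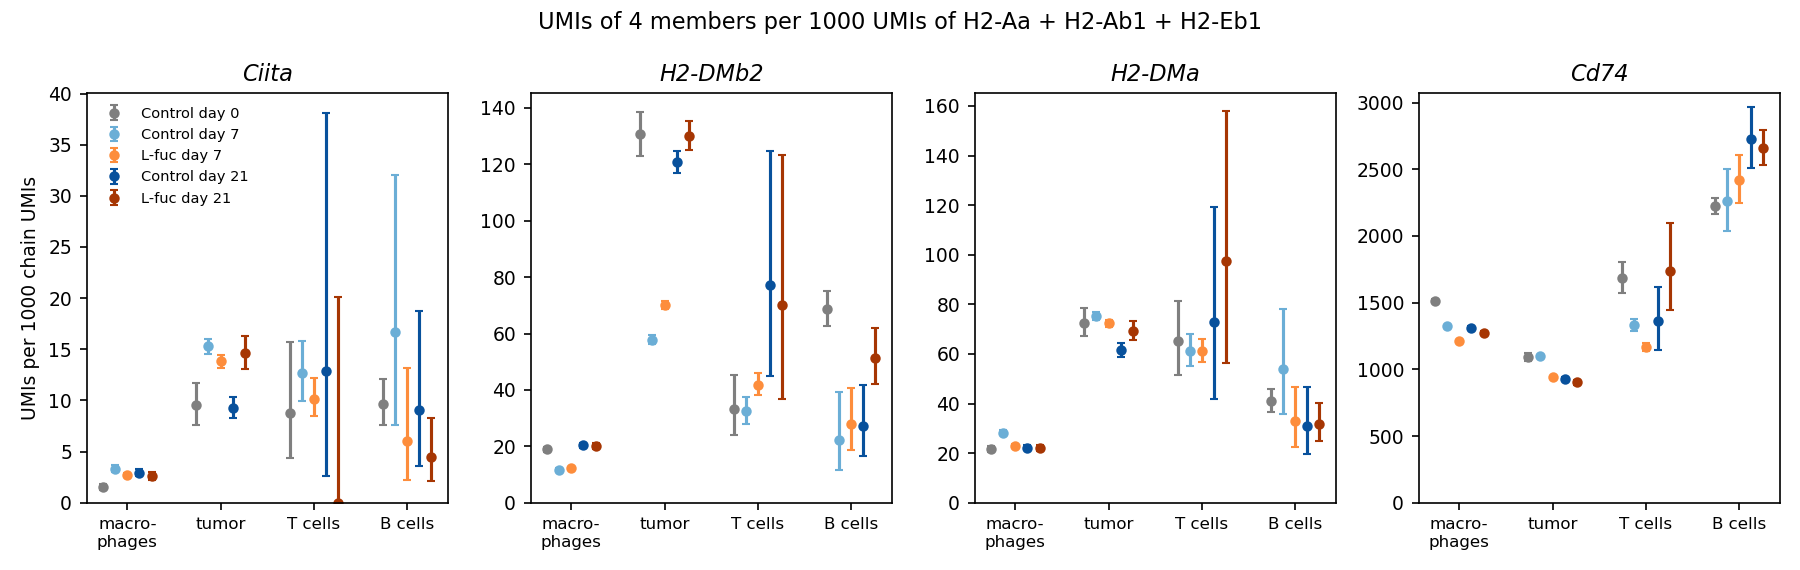
UMIs of Ciita, H2-DMb2, H2-DMa and Cd74 per 1000 UMIs of H2-Aa, H2-Ab1 and H2-Eb1 (vertical), in 4 classes (horizontal), 1 point per library with its 95% counting interval. Tumor points lie above macrophage points for Ciita, H2-DMb2 and H2-DMa and below them for Cd74 in all 5 libraries.

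The H2-O genes were close to absent from the tumor class. H2-Oa, the alpha chain of the H2-DM inhibitor, had 0 UMIs at day 0, which allows up to 0.671 CPM, and 39, 30, 4 and 8 UMIs in the other libraries. H2-Ob, its beta chain, had 0 at day 0 and 16, 17, 2 and 5 UMIs after it. H2-Eb2, a second class II beta gene beside H2-Eb1 that is no member, had 6.49 CPM in the tumor class at day 0, 6.63 in the day 7 control, 26.9 in day 7 L-fuc, 45.3 in the day 21 control and 38.2 in day 21 L-fuc, against 0.276 to 3.71 in macrophages. Unlike the chains, H2-Eb2 was therefore higher in the tumor class than in macrophages in each library.

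**Figure D3:**
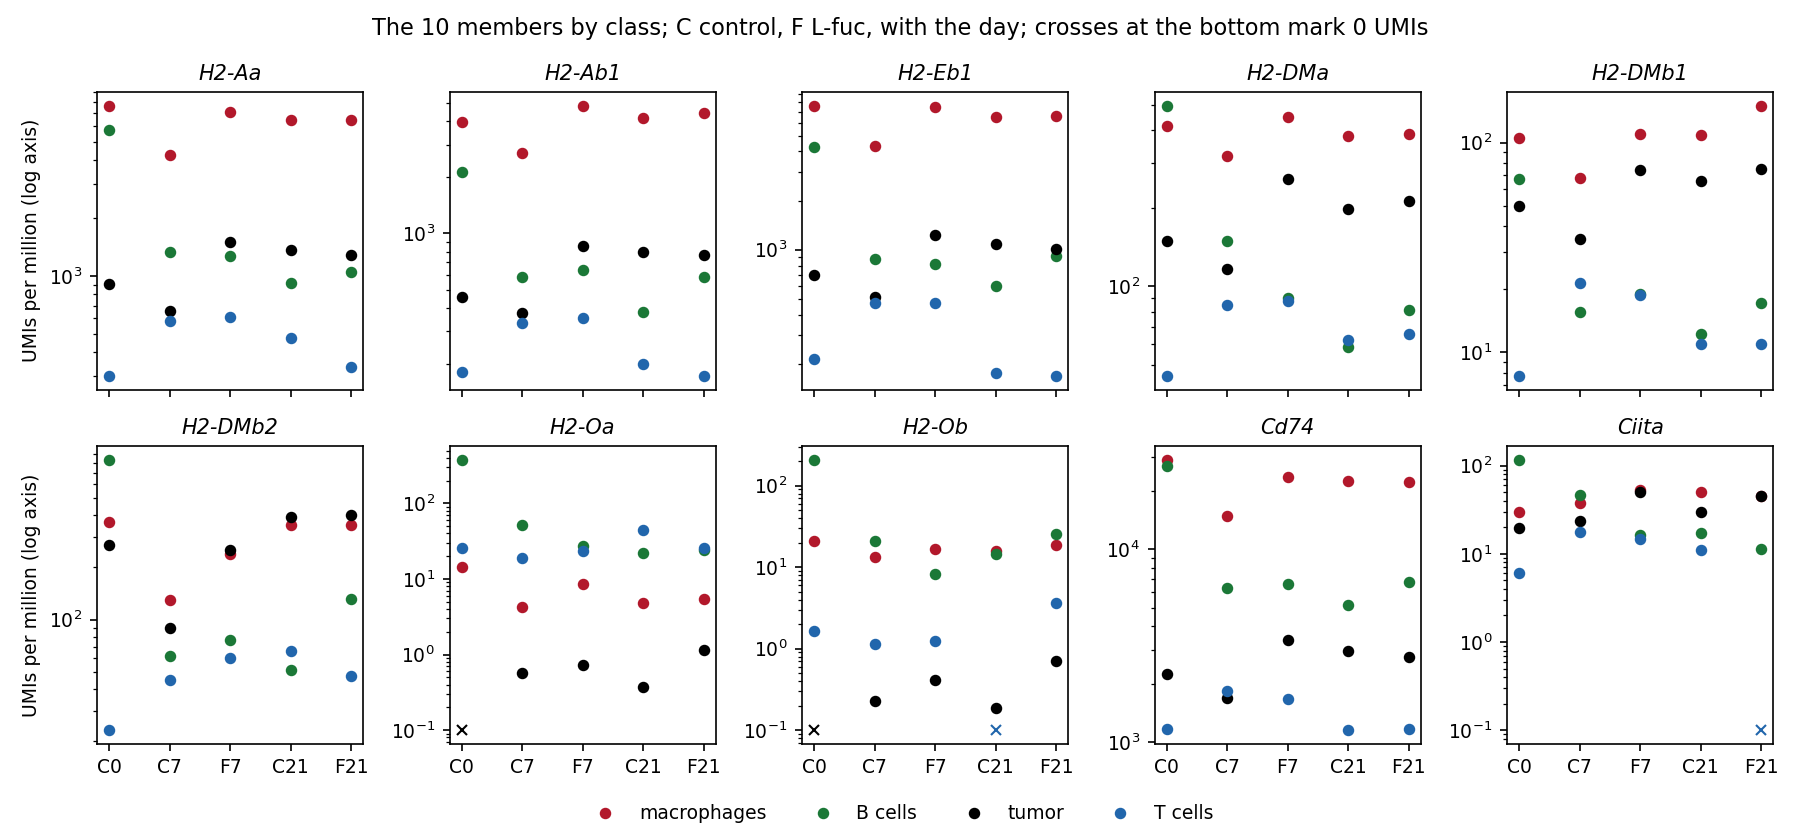
Level of each of the 10 members in CPM (vertical, log axis) by library (C control, F L-fuc, then the day), 1 color per class, with a cross at the bottom for 0 UMIs. H2-Oa and H2-Ob stand highest in B cells of day 0 (378.8 and 208.9), and Ciita and H2-DMb2 of the tumor class lie near those of macrophages.

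Comparing the waters asks how L-fuc affects the cells of the tumor. In macrophages of day 7 the chain sum with L-fuc was 1.72 times that with control water (1.71 to 1.74), and 7 of 10 members were at least 1.5-fold higher and 0 at least 1.5-fold lower, where 4.98% of all 13382 genes were that much higher and 24.3% that much lower. Those 7 were H2-Aa (1.67), H2-Ab1 (1.79), H2-Eb1 (1.73), H2-DMb1 (1.63), H2-DMb2 (1.84), H2-Oa (2.07, from 91 and 34 UMIs) and Cd74 (1.58). Ciita was 1.40 times higher (1.22 to 1.62), H2-DMa 1.41 and H2-Ob 1.27 (0.993 to 1.63). The median log2 ratio of the members was 0.72, and that of all genes was -0.24, so with size factors from the median gene the ratio of the chains was 2.03.

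At day 21 macrophages of both waters had nearly equal class II levels. The chain sum with L-fuc was 1.02 times that with control water (1.01 to 1.03), 0 of 10 members were 1.5-fold higher or lower (14.4% of all genes higher, 4.31% lower, median log2 ratio 0.10), and the direction of the chain ratio turned with the processing. H2-DMb1 differed most, at 1.38 (1.24 to 1.55), H2-Aa was at 0.993 (0.977 to 1.01), Cd74 at 0.988 (0.980 to 0.997) and Ciita at 0.892 (0.738 to 1.08). Whether the ratio of day 7 differs from that of day 21 was not tested.

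The day 7 control was the library that stood apart from day 0. Against day 0, the day 7 control had a chain sum of 0.584 (0.579 to 0.590) in macrophages, and 7 members were at least 1.5-fold lower and 0 higher (7.22% of all genes lower, 42.8% higher, with a median log2 ratio of 0.42). H2-Oa was at 0.293 (0.184 to 0.459) of its day 0 level and H2-DMb2 at 0.356 (0.328 to 0.386), while Ciita was at 1.26 (1.01 to 1.59). The day 21 control lay above the day 7 control, with a chain sum 1.52 times higher (1.51 to 1.54), 6 members at least 1.5-fold higher and 0 lower (10.1% of all genes higher, 28.6% lower, median log2 ratio -0.18), led by H2-DMb2 at 2.69. The comparisons share the day 7 control library, whose macrophages also held 989.6 CPM of the tumor markers and 666.2 of the hemoglobin genes Hba-a1 and Hbb-bs, against 399.2 and 4295 in day 7 L-fuc. In macrophages without a UMI of Sparc or Erbb3, which were 22.1% of those of the day 7 control and 69.3% of those of day 7 L-fuc, the chain sum was 14461 and 20789 CPM, and the L-fuc ratio was 1.44. The part of tumor RNA in the rest of the difference was not tested. Natural killer markers (Gzma, Klrb1c and Ncr1) summed to 99.3 CPM in macrophages of the day 7 control and 506.2 in those of day 7 L-fuc, and the macrophage markers to 8314 and 5247, and their part was not tested either. Taken as a mean over barcodes, the ratio was 1.40.

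The day 7 difference in macrophages was small in shallow barcodes, which were the majority, and large in deep ones. Under 5000 UMIs the chain sum was 10472 CPM in 626 macrophages with control water and 12706 in 825 with L-fuc, and from 5000 to 10000 UMIs it was 15146 in 366 and 17151 in 237. From 10000 to 20000 UMIs it was 9405 in 214 and 23699 in 292, and from 20000 to 40000 UMIs 6153 in 26 and 20007 in 100.

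**Figure D4:**
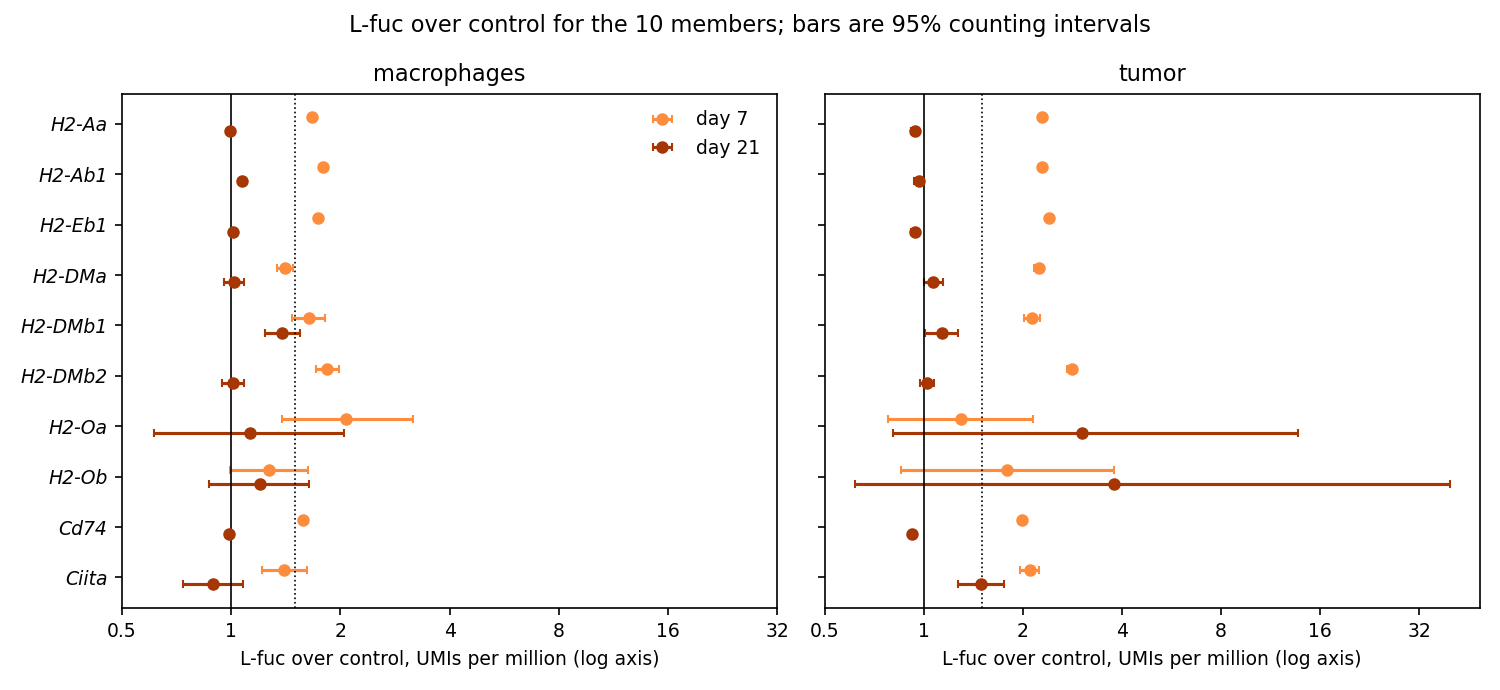
Ratio of L-fuc to control CPM (horizontal, log axis) for the 10 members (vertical) in macrophages and the tumor class at day 7 and day 21, with 95% counting intervals, a solid line at 1 and a dotted line at 1.5. At day 7 all 20 points lie right of 1, and at day 21 those of the 3 chains and Cd74 lie near 1 in both classes.

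In the tumor class of day 7 the ratio over all barcodes was larger than in macrophages, but in barcodes of 10000 to 20000 UMIs it was 2.21 against 2.52. The chain sum with L-fuc was 2.32 times that with control water (2.31 to 2.34), and 9 of 10 members were at least 1.5-fold higher and 0 lower, where 6.55% of all 15618 genes were that much higher and 9.78% that much lower. H2-Aa was at 657.5 CPM with control water and 1503 with L-fuc, H2-Eb1 at 512.6 and 1232, H2-DMb2 at 89.4 and 251.9, Cd74 at 1697 and 3374 and Ciita at 23.6 and 49.6. H2-DMb2 thus had the largest ratio of the members, 2.82 (2.73 to 2.91), and Ciita and Cd74 were at 2.10 (1.97 to 2.24) and 1.99 (1.97 to 2.004). H2-Oa, the member under the fold, and H2-Ob rest on 16 to 39 UMIs per library, and the interval of each included 1. The log2 ratio of the median gene was -0.04 here.

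The tumor class of the day 7 control lay near the level of RNA in barcodes that should not make class II. T cells of that library had a chain sum of 1384 CPM against 1545 in its tumor class, a ratio of 0.896, and Sparc, a tumor gene, was in those T cells at 0.423 of its tumor level. In day 7 L-fuc, T cells had 1438 against 3592 in the tumor class, a ratio of 0.400, with Sparc at 0.165. Ciita in T cells was at 17.5 CPM against 23.6 in the tumor class of the day 7 control, at 14.7 against 49.6 in day 7 L-fuc and at 6.07 against 19.7 at day 0. Cd68 was in T cells at 5.74 times its tumor level in the day 7 control and 7.52 times in day 7 L-fuc. Csf1r was at 5.88 and 10.2 times, and Apoe, which tumor cells can also make, at 1.14 and 0.385. With the T cell level of each library subtracted, the L-fuc ratio of the tumor class was 13.4 in place of 2.32. The part of macrophage RNA in the T cell level was not tested, so that level may differ from the RNA of other cells in tumor barcodes. In tumor barcodes without a UMI of C1q, Tyrobp or Fcer1g, which were 8.31% of the class in the day 7 control and 27.6% in day 7 L-fuc, the chain sum was 1063 and 3074, a ratio of 2.89.

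The difference in the tumor class of day 7 was present at each depth. Among barcodes under 5000 UMIs the chain sum was 1308 CPM with control water and 3023 with L-fuc, from 5000 to 10000 UMIs 1503 and 2866, from 10000 to 20000 UMIs 1602 and 3539.8, and from 20000 to 40000 UMIs 1840.4 and 3866. The median tumor barcode held 5 UMIs of the chains in the day 7 control and 34 in day 7 L-fuc, and 12 at day 0, 50 in the day 21 control and 47 in day 21 L-fuc. No UMI of the chains was found in 6.87% of the tumor barcodes of the day 7 control and 2.59% of those of day 7 L-fuc, at median depths of 7393 and 14036 UMIs. Among T cells, which should lack them, it was 11.3% and 25.9% at median depths of 2994 and 4040 UMIs, so a UMI of the chains in one barcode does not mark expression at day 7.

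**Figure D5:**
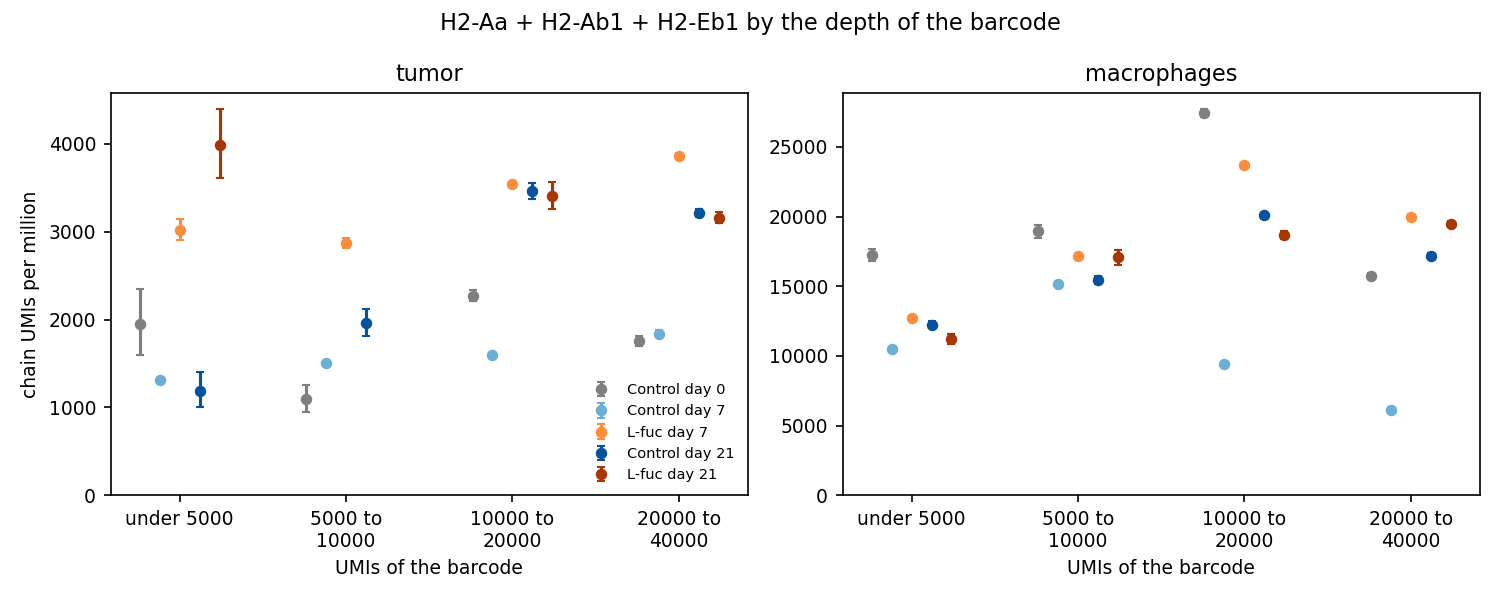
Chain sum in CPM (vertical) by the number of UMIs of the barcode (horizontal) in the tumor class and in macrophages, 1 point per library with its 95% counting interval. Bins with few barcodes have no point. In the tumor class, day 7 L-fuc lies above the day 7 control in all 4 bins. From 10000 to 40000 UMIs, day 7 L-fuc and both libraries of day 21 lie between 3159.96 and 3866 in that class. Under 5000 UMIs, day 21 L-fuc lies above the day 21 control there.

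At day 21 the tumor class had similar levels with both waters when summed over its barcodes, but not in its shallow barcodes. The chain ratio of L-fuc to control was 0.948 (0.932 to 0.964), and 1 of the 9 members with enough UMIs was at least 1.5-fold higher and 0 lower (7.62% of all genes higher, 5.09% lower). That member was H2-Oa, from 8 and 4 UMIs, and Ciita was at 1.496 (1.28 to 1.75), just under the fold. The mean over barcodes gave a ratio of 1.13, on the other side of 1. Under 5000 UMIs the chain sum was 1191 CPM (1001 to 1407) in 44 barcodes with control water. With L-fuc it was 3989 (3608 to 4400) in 73 barcodes of that depth. Between controls, the day 7 tumor class was at 0.747 (0.732 to 0.763) of day 0, with 1 member higher, H2-Oa, whose day 0 count was 0 so that its ratio rests on the pseudocount of 1 UMI, and 1 lower, H2-DMb2 at 0.331 (19.9% of all genes higher, 11.2% lower). These counts depended on the setting. A pseudocount of 5 UMIs gave 0 members higher and 3 lower (10.1% of all genes higher, 26.4% lower), and a minimum of 50 UMIs gave 0 and 1. The day 21 control was at 2.09 (2.07 to 2.12) of the day 7 control, with 7 members higher and 0 lower (18.3% of all genes higher, 11.8% lower), and again H2-DMb2 had the largest ratio, 4.37 (4.20 to 4.55).

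Over all kept barcodes, the chain sum was 2515 CPM in the day 7 control and 5616 in day 7 L-fuc, a ratio of 2.23, and 8071 and 7849.9 at day 21, a ratio of 0.973. With the class levels of L-fuc but the class shares of the control, the day 7 ratio was 1.84, and with the levels of the control but the shares of L-fuc it was 1.30. Those shares are of UMIs, of which the macrophage class held 7.06% in the day 7 control and 12.8% in day 7 L-fuc. Its share of barcodes was 6.88% and 16.1%. Both the levels within classes and the makeup of the library thus differed. Fewer cells of a type and less RNA per cell cannot be told apart in that ratio alone.

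T cells held little class II RNA, with 1 exception. The chain sum was 694.9 CPM at day 0, 1384 in the day 7 control, 1438 in day 7 L-fuc, 850.8 in the day 21 control and 677.3 in day 21 L-fuc, or 0.0360 to 0.123 of the macrophage level, and 78.6% of T cells of day 0 had no UMI of the chains. In T cells with a sequenced receptor that met no other rule the day 21 control was at 221.9. The median T cell held 0 UMIs of the chains at day 0 and 3 and 2 at day 7, where natural killer barcodes, picked by Ncr1, Klrb1c and Gzma, stood at 1209.7 with control water and 1144 with L-fuc, near the T cells. H2-Oa was the exception. Among T cells with a sequenced receptor it was at 24.95 CPM at day 0 (17.7 to 34.3), 23.7 in the day 7 control (18.2 to 30.4), 24.1 in day 7 L-fuc (20.1 to 28.6), 38.5 in the day 21 control (17.6 to 73.0) and 24.98 in day 21 L-fuc (8.11 to 58.3). The intervals of the 5 libraries overlapped, and over all T cells the level was 1.81 to 9.06 times that of macrophages. The tumor class had at most 1.14 CPM of H2-Oa. At day 0, H2-Oa had 71 UMIs in the 1217103 of the other class, more per UMI than the 47 in 1813336 of T cells. In both day 7 libraries the other class had less H2-Oa per UMI than T cells. In the day 21 control the other class had 51 UMIs in 1331979, and T cells 12 in 273860. In day 21 L-fuc they had 29 in 1395321 and 7 in 273161. The T cell counts of day 21 are too few to order the 2 classes.

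H2-Ob, the partner chain of H2-Oa, did not accompany it in T cells. The T cells with a receptor held 38 UMIs of H2-Oa and 2 of H2-Ob at day 0, 63 and 4 in the day 7 control, 128 and 5 in day 7 L-fuc, 9 and 0 in the day 21 control and 5 and 0 in day 21 L-fuc. B cells of day 0 held 243 UMIs of H2-Oa and 134 of H2-Ob, a smaller excess of H2-Oa than in T cells. Cd79a, a B cell receptor component, had 0, 0, 2, 0 and 0 UMIs in the same T cells, but the class rules held it low in advance. Ms4a1, a B cell gene that no rule used, had 0, 1, 1, 0 and 0 UMIs in them. Mast barcodes, picked by Cpa3 and Hdc, had 29 UMIs of H2-Oa and 0 of H2-Ob in 90 barcodes of day 7 L-fuc, which was 82.7 CPM of H2-Oa. The 12 mast barcodes of the day 7 control had 0 UMIs of both genes, which allows up to 66.5 CPM. Day 21 L-fuc had 0 of both in 2 barcodes, which allows up to 297.8 CPM. The 10 of the day 21 control are not given here, so the value of mast barcodes rests on 1 library.

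B cells were well represented in 1 library only. At day 0 their 127 barcodes carried Ms4a1 (639.1 CPM) and Pax5 (107.6), and their members stood at 12145 for the chain sum, 26998 for Cd74, 378.8 for H2-Oa, 208.9 for H2-Ob and 116.9 for Ciita. Against macrophages of day 0 the chain sum was 0.630 (0.615 to 0.645) and Cd74 0.925 (0.910 to 0.940), but H2-Oa was 26.4 times higher (19.5 to 36.4), H2-Ob 10.1 times (7.55 to 13.6), Ciita 3.92 times (2.88 to 5.32) and H2-DMb2 2.29 times (2.07 to 2.53). Every B cell of day 0 had a UMI of the chains, and their 25th and 75th percentiles were 119.5 and 187.3 chain UMIs per 10000. The B cell class of the later libraries had 17 to 42 barcodes, a chain sum of 1891 to 2788, less Ms4a1 (80.6 to 145.1), Pax5 (5.74 to 25.9) and Cd22 (9.77 to 29.99), and Ighm at 7436, 4069.9 and 4963 in both day 7 libraries and day 21 L-fuc against 2689 at day 0, with 105.0 in the day 21 control. Its markers were therefore mixed, and it is described by its rule.

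High Ciita levels, each from few UMIs, were found in a handful of other barcodes. Those with at least 2 UMIs of Xcr1 and Clec9a, markers of type 1 conventional dendritic cells, numbered 6 at day 0, 7 in the day 7 control, 5 in day 7 L-fuc, 11 in the day 21 control and 2 in day 21 L-fuc. Their chain sum was 19950 CPM in the day 7 control and 29211 in day 21 L-fuc, against 11273 and 17487 in macrophages, and lay nearer to macrophages in the other 3 libraries (18954 to 22682), while Ciita stood at 154.9, 654.9, 479.3, 573.1 and 268.5, from 3, 13, 11, 26 and 5 UMIs. Barcodes with Ccr7 and Fscn1, which mark mature dendritic cells, had a chain sum of 9341 at day 0 (7 barcodes) and 13691 in day 21 L-fuc (3 barcodes) with 0 UMIs of Ciita in both, which allows up to 69.5 and 68.9 CPM. Their chain sum was 2266 in the day 7 control (24 barcodes) and 4586 in day 7 L-fuc (13 barcodes), with 1 UMI of Ciita in each, and 1184 in the 1 barcode of the day 21 control. These counts are too few for a comparison between the waters.

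Within macrophages, class II levels spread widely between barcodes. The 10th and 90th percentiles were 9.33 and 300.8 chain UMIs per 10000 in the day 7 control, and 11.5 and 415.1 in day 7 L-fuc. The 10% of macrophages with the most chain UMIs held 45.6% and 53.7% of them. That share is of raw UMIs and so also reflects depth. In day 7 L-fuc a macrophage under 5000 UMIs held 30.8 chain UMIs on average, and one of 20000 to 40000 UMIs held 494.2. Macrophages with at least 3 UMIs of Cx3cr1, a chemokine receptor of monocytes and macrophages, had a chain sum of 24529 at day 0, 15924 in the day 7 control, 28417 in day 7 L-fuc, 21506 in the day 21 control and 20869 in day 21 L-fuc, each above the 13634, 9611, 13967, 12961 and 10286.0 of the rest of the same library. Their median depth was also higher in each library, for example 13984 against 2983 UMIs in day 7 L-fuc. Macrophages with at least 3 UMIs of Arg1, an arginine-degrading enzyme, had less than the rest at day 0 (13275 against 23473) and in day 7 L-fuc (14246 against 20213), but more in day 21 L-fuc (19098 against 17009). Cycling macrophages, with at least 2 UMIs of Mki67 and Top2a, had 7113 in the day 7 control and 16522 in day 7 L-fuc, below the 13029 and 20241 of those not cycling, while in day 21 L-fuc they had 18236 against 17235. Only 22.1% of macrophages of the day 7 control were without a UMI of Sparc or Erbb3. The part of tumor RNA in the cycling split was not tested. The other libraries are not given here for the Arg1 and cycling splits.

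Genes that control or accompany the members were also compared between the waters at day 7. In the tumor class, 2 of 19 genes of Ciita and class II promoter regulation were at least 1.5-fold higher with L-fuc: Irf1 (1.60), an interferon target and activator of Ciita, and Socs1 (1.60), the feedback inhibitor of interferon signals. Another 3 were lower, where 6.55% of all genes were higher and 9.78% lower. These 3 were Spi1, Irf4 and Il10. Of 6 genes of surface turnover and costimulation, 1 (Cd80) was higher and 4 (March1, Cd83, Cd86 and Cd40) were lower. Of 8 genes of peptide supply, 0 were higher and 1 (Ctss) was lower. Macrophage markers were lower in this class too. Adgre1, Csf1r and Cd68 had 151, 201 and 914 UMIs in the 69250417 of the class with control water. With L-fuc they had 25, 43 and 219 in 41029882. The part of macrophage RNA in the lower genes of these lists was not tested. The proteins that sit on class II promoters were near 1, with Rfx5 at 0.979, Rfxap at 1.06, Rfxank at 1.04, Nfya at 0.975, Nfyb at 1.00 and Nfyc at 1.01. All 4 class I genes of the list were higher, H2-K1 at 1.67, H2-D1 at 1.86, B2m at 1.53 and their activator Nlrc5 at 1.73, and H2-Eb2 was at 4.05 (3.63 to 4.53). At day 21, 0 of the 16 regulation genes and 0 of the 4 class I genes with enough UMIs passed the fold in the tumor class in either direction.

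In macrophages of day 7, Irf8 (1.501), a transcription factor of the myeloid lineage, and Ifng (2.90, from few UMIs) were the 2 of 19 regulation genes that were higher, and Irf4 and Il10 were lower, where 4.98% of all genes were higher and 24.3% lower. Irf1 was at 1.30, and none of the 4 class I genes passed the fold. Of the 8 genes of peptide supply none was higher, while the lysosomal proteases Ctsl (0.566) and Ctsd (0.645) were lower, a share like the 24.3% of all genes. Ifi30, which reduces disulfide bonds of antigens, was at 1.32, and Ctss, the protease that trims Cd74 in these cells, at 1.24. Cd40 (1.58) and Cd80 (1.76, interval 0.931 to 3.47), receptor and ligand of T cell help, were the genes higher among 6 of surface turnover and costimulation.

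Over the 25 profiles of 5 classes by 5 libraries, on log2 of CPM plus 10, the 3 chains followed each other with Pearson r of 0.987 to 0.991, while H2-Aa and H2-Oa had an r of 0.07. The genes most like H2-Aa that are no members were Apobec1 (r 0.900), Dnase2a (0.894), Stx7 (0.888), Ctsz (0.886) and Slc7a7 (0.874), and those most like H2-Ob were Fam43a (0.893), Btk (0.882), Swap70 (0.877), Lyl1 (0.869) and Rubcnl (0.863). Ciita followed the chains less closely, at 0.743 to 0.758. Profiles of one library share its depth and its free RNA, and these values are a description only.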

How the data were processed

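The authors sorted CD45+ cells, made 10x Genomics libraries and deposited filtered matrices of raw UMI counts, with barcode and gene lists, and tables of T cell receptor contigs. The processing notes name mm10, Cell Ranger 3.0 and Seurat 4.0, and the matrix headers name Cell Ranger 7.1.0. The transcript end that was sequenced is not given in the sources used here. The study dropped cells that several of its doublet callers (Scrublet, DoubletFinder and scDblFinder) named, but the deposited matrices still hold 62 to 1928 barcodes per library with over 10% mitochondrial UMIs, which the study also dropped, and no doublet caller was run here. From the deposited counts, UMIs were summed per class and library and scaled to 1000000 UMIs of that class (CPM), and not divided by length, since a UMI counts a molecule. Intervals are exact Poisson for levels and exact conditional binomial for ratios. Called members had at least 10 UMIs over both libraries and a 1.5-fold ratio with a pseudocount of 1 UMI. All 10 members are named. The other genes come from lists fixed with the members. Some genes of these lists are not reported here. Members, lists and rules were chosen with earlier results of these data known. The fold table was tested on simulated counts. The software was Python (version 3.11.15) with scipy (1.17.1), numpy (2.4.6), matplotlib (3.10.9) and pandas (2.3.3). Libraries held 14439185 to 119047810 UMIs. The alternatives were other filters, totals, class limits and corrections for free RNA. Receptor contigs were used only to mark T cells.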

Additional observations from a re-analysis of the deposited data

Results flagged for a closer look

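The ratio of L-fuc to control lay above 1 at day 7 and below 1 at day 21, with both counting intervals clear of 1, for 10 levels. Each rests on 1 library per condition, and the difference between the days was not tested. In the tumor class these were the chain sum (2.32 and 0.948), H2-Aa (2.29 and 0.941), H2-Eb1 (2.40 and 0.941) and Cd74 (1.99 and 0.925). Over all barcodes they were the chain sum (2.23 and 0.973), H2-Aa (2.14 and 0.956), H2-Eb1 (2.30 and 0.955), H2-DMb2 (2.30 and 0.945) and Cd74 (2.04 and 0.983). In macrophages it was Cd74 (1.58 and 0.988). The direction of the chain sum at day 21 depended on the processing. In the tumor class its ratio was 1.13 as a mean over barcodes and 1.22 when thinned to 1000 UMIs. With the T cell level subtracted it was 1.002, and over all barcodes it was 1.01 with size factors. The other alternatives of these ratios stayed below 1.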

How the results depend on the processing

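Of 101 alternative values, 45 stayed within the counting interval or count limit of the value reported, 41 left it in the same direction and 15 turned to the other side of 1 or of 0; the cause was not tested. All 16 alternatives of the counts of members past the fold in macrophages left those counts as they were. They were a minimum of 50 UMIs, which dropped no member there, and a pseudocount of 5 UMIs, so they could change little. The settings that moved the chain ratio were not applied to these counts. In the tumor class, outside the 101 values, the minimum gave 8 of 9 members higher with L-fuc at day 7 and 0 of 8 at day 21. For the day 21 control over the day 7 control the pseudocount gave 8 higher. All alternatives for the tumor class, and for macrophages those without tumor gene UMIs, at 10000 to 20000 UMIs and with the T cell level subtracted, were added after seeing the data. No paired analysis was possible because each condition was 1 library. With no replicate to leave out, depth limits H2-Oa, H2-Ob and Ciita most.

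For macrophages of day 7 (1.72), the chain ratio was 2.03 with size factors, 1.74 with totals without hemoglobin, mitochondrial and ribosomal genes, 1.47 with barcodes of more than 1 class kept, 1.83 with at least 5 C1q UMIs, 1.63 with the tumor level and 1.82 with the T cell level subtracted, 2.52 in barcodes of 10000 to 20000 UMIs, 1.398 as a mean over barcodes, 1.397 when thinned to 1000 UMIs and 1.44 without tumor gene UMIs. In the same order at day 21 (1.02), leaving out the C1q limit, it was 0.959, 1.002, 0.948, 1.034, 1.030, 0.931, 0.993, 0.992 and 1.07, and 0.9997 with a complexity limit. The ratio thus turned below 1 with size factors, with barcodes of more than 1 class kept, at 10000 to 20000 UMIs, as a mean over barcodes, thinned and under the complexity limit.

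Over all barcodes, size factors, totals without those genes, the mean and thinning gave 2.35, 2.26, 2.152 and 2.152 at day 7 (2.23) and 1.01, 0.961, 0.900 and 0.896 at day 21 (0.973), where 20% mitochondrial UMIs gave 0.982 and the complexity limit 0.954. In the tumor class of day 7 (2.32) the ratio was 2.39 with size factors, 2.35 with totals without those genes, 2.23 with barcodes of more than 1 class kept, 13.4 with the T cell level subtracted, 2.21 at 10000 to 20000 UMIs and 2.89 without C1q, Tyrobp and Fcer1g. At day 21 (0.948) the last 4 gave 0.967, 1.002, 0.984 and 0.851, the mean 1.13 and thinning 1.22.

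The chain sum of T cells with a receptor contig and no other class rule was 1326 CPM in the day 7 control, 1359 in day 7 L-fuc, 221.9 in the day 21 control and 579.4 in day 21 L-fuc. With barcodes of more than 1 class kept it was 6039, 3953, 3834, 4217 and 7204 from day 0 to day 21 L-fuc, and with the tumor level subtracted -1373.0, -161.0, -2155, -2381 and -2387, since the tumor class had the higher level in all 5 libraries.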
